A study of Homo sapiens with 18 samples.

Results

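The peaks described here lie in or within 10 kb of 10 blood microRNA genes. They come from lists made with antibodies against ETO or against a Flag tag on the AML1-ETO fusion protein. The genes, MIR130A, MIR130B, MIR223, MIR193A, MIR126, MIR181A1, MIR155, MIR146A, MIR10A and MIR196B, were chosen by name because they shape myeloid cells or are known as targets of the fusion, and all 10 were found among the 1913 microRNA genes and 59716 genes with a position in the RefSeq gene table (GRCh38.p14). Binding was profiled by CUT&RUN: an antibody on its target in opened cells tethers a nuclease, and the short DNA cut free around it is sequenced. The cells were Kasumi-1, a human acute myeloid leukaemia line with the t(8;21) translocation that fuses RUNX1 (AML1) to RUNX1T1 (ETO), carrying AML1-ETO with a Flag tag. All groups were transduced and sorted as viable GFP+ cells at day 3, either as control or with knockdown of miR-130a (the construct is not given in the sources used here). Each condition was profiled with an antibody against ETO, with the Flag M2 antibody and with mouse IgG, in 3 libraries each, 18 libraries in all. Every value comes from 1 cell line, and interval lists do not measure marker expression, so the labelled cell type was not checked against markers.

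The data are lists of intervals, a single one for each condition with anti-ETO and with anti-Flag (4 single-antibody lists). A further list for each condition holds the sites called by both antibodies (dual-antibody peaks), and the last 3 lists hold dual-antibody peaks that are shared by the conditions, control-unique or knockdown-unique. The lists held 14264 (control anti-ETO), 22594 (knockdown anti-ETO), 23162 (control anti-Flag) and 25961 (knockdown anti-Flag) peaks. Peak heights, scores and values of single libraries are not part of the lists, so the depth behind a call is unknown. No spread between libraries could be computed and no test of the conditions was possible; no p-values are given, and a difference between lists may lie within the spread between libraries. IgG peaks were not analysed here.

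A microRNA gene codes for a hairpin that is cut out of a longer primary transcript and trimmed to a short mature RNA, which pairs with target messages mainly through its seed, bases 2 to 8. The primary transcript often starts well upstream of the hairpin, in a host gene that may be coding or noncoding. AML1-ETO keeps the DNA-binding domain of RUNX1 and recruits corepressors through ETO, and microRNA genes are among the loci at which it has been studied in leukaemia. miR-223 is a myeloid microRNA tied to granulocyte differentiation, miR-193a can repress KIT, and miR-126 is known in stem cell quiescence. miR-155 and miR-146a belong to inflammatory signalling, miR-181a is known in lymphoid and myeloid maturation, and miR-10a and miR-196b sit inside HOX clusters.

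The mature sequences below show an arm of each gene, for MIR130A the 5p arm only because its 3p arm was not among the sequences used here. All are RefSeq sequences (GRCh38.p14), written 5′ to 3′ with the seed in capitals. The first 5 come from the genes with peaks in all 4 single-antibody lists, miR-10a from a gene with a call in 1 list, and the last 4 from genes with no peak within 10 kb.
miR-193a-3p: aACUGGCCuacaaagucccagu
miR-223-3p: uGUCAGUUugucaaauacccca
miR-130b-3p: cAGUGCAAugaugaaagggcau
miR-126-3p: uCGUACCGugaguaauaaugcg
miR-196b-5p: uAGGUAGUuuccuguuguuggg
miR-10a-5p: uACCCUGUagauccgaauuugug
miR-130a-5p: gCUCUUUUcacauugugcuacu
miR-146a-5p: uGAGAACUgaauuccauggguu
miR-181a-5p: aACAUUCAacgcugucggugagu
miR-155-5p: uUAAUGCUaaucgugauagggguu

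Among the sequences compared, the seed of miR-130b-3p was carried by 5 further genes, that of miR-181a-5p by 6, that of miR-146a-5p by 2, that of miR-196b-5p by 2 and that of miR-193a-3p by 1. miR-130a-3p, by background knowledge the arm of the same family as miR-130b-3p, and miR-10b-5p were not compared here, so these counts do not cover MIR130A's 3p arm or MIR10B. The 4 family partners below carry the seeds of miR-130b-3p, miR-146a-5p and miR-181a-5p and are shown because their own genes had peaks.
miR-301b-3p: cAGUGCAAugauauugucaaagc
miR-301a-3p: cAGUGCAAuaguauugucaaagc
miR-146b-5p: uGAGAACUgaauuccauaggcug
miR-181c-5p: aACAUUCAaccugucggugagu

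Peaks of both antibodies in both conditions were found at 5 of the 10 genes: MIR193A, MIR223, MIR130B, MIR126 and MIR196B. MIR10A had a single call, by anti-Flag in knockdown, and MIR130A, MIR181A1, MIR155 and MIR146A had no peak in any list. The same 5 genes had a control anti-ETO peak (24.7% of all microRNA genes and 26.1% of all genes did), a knockdown anti-ETO peak (29.7% and 30.2%) and a control anti-Flag peak (28.3% and 28.3%). With MIR10A, 6 genes had a knockdown anti-Flag peak (26.1% and 23.8%). A peak in each of the 4 lists was found at 5 of the 10, against 20.1% of all microRNA genes and 19.9% of all genes. A peak in any of the 4 was found at 6 of the 10, against 34.8% and 33.8%.

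The lists derived from both antibodies rest on the same calls, so finding the same genes in them is not separate evidence. A control dual-antibody peak was found at 5 genes (23.4% of all microRNA genes, 23.9% of all genes) and a knockdown dual-antibody peak at the same 5 (22.1% and 21.5%). A shared peak was found at these 5 genes too (19.3% and 18.8%). MIR130B alone of the 10 had a control-unique peak (7.48% and 9.02%), and MIR126 alone had a knockdown-unique peak (10.7% and 9.84%). The shares with a unique peak, 1 of 10 in each case, were near the background. The 5 of 10 with a shared peak stood above it, but a list of 10 genes chosen as known or likely targets, with earlier results of these data known, is no independent evidence of enrichment.

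**Figure D1:**
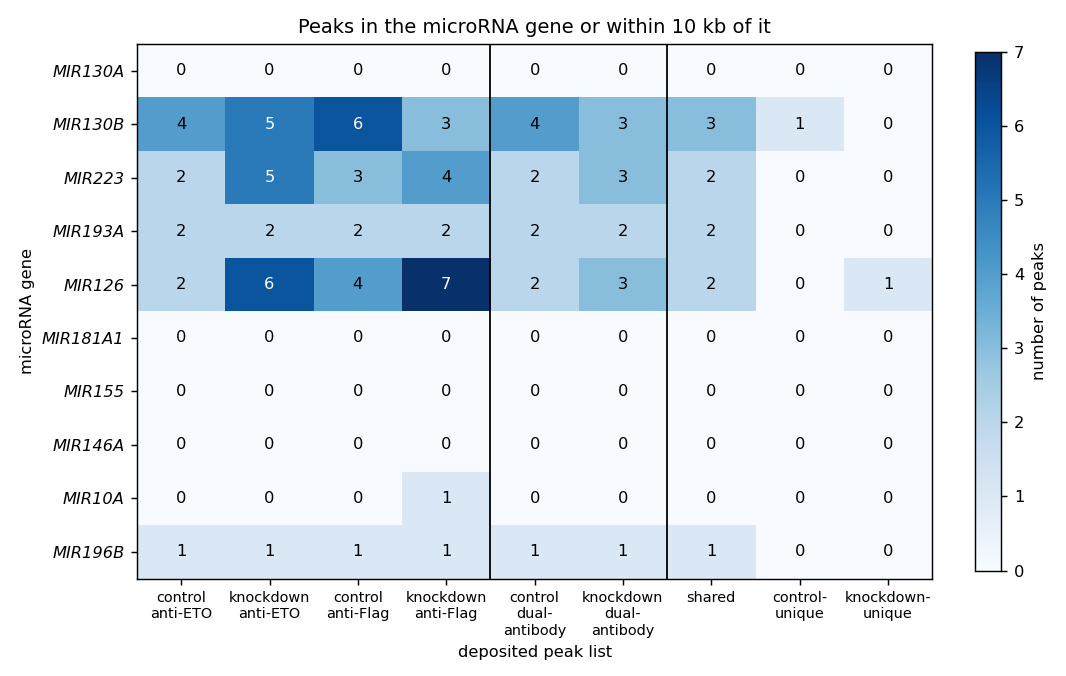
Number of peaks in each microRNA gene or within 10 kb of it (rows) in the 9 deposited lists (columns); darker cells hold more peaks. MIR126 and MIR130B have the most calls, with up to 7 and 6 in a list, MIR193A has 2 and MIR196B has 1 in every single-antibody list, and 4 genes have 0 throughout.

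MIR193A had the peak nearest to its hairpin (chr17:31559996-31560083, plus strand). The control anti-ETO peak lay at chr17:31558897-31559377, 619 bp upstream, and was 481 bp wide. The knockdown anti-ETO peak ended 622 bp upstream and was 748 bp wide. The anti-Flag peak ended 624 bp upstream in control (756 bp wide) and 912 bp upstream in knockdown (785 bp wide). The shared peak spanned chr17:31558300-31559377, a stretch in which the table annotates no gene. All 4 lists thus called the same place just upstream of the hairpin, with the knockdown anti-Flag call shifted away from it.

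A second shared peak of MIR193A lay 9067 bp upstream at chr17:31550158-31550929, next to the transfer RNA gene TRT-CGT4-1. Its peaks in all 4 lists began at the same base and were 520 to 772 bp wide. Among the 5555 merged regions with exactly 1 peak in each of the 4 lists, 27 (0.486%) had a common first base. What sets such an edge was not tested.

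MIR223 (chrX:66018870-66018979, plus strand) had calls in a block upstream of the hairpin that ran into the start of its host transcript MIR223HG. The control anti-ETO list held 2 peaks there, chrX:66013227-66014022 and chrX:66014771-66015794, of 796 and 1024 bp. The control anti-Flag list held 3, the widest of them chrX:66014612-66016037 with 1426 bp, at the width percentile of 93.6 of that list. The knockdown lists held 5 (anti-ETO) and 4 (anti-Flag) peaks over the same block. At the second control interval the knockdown calls were narrower: 3 by anti-ETO, of 381, 175 and 245 bp, and 2 by anti-Flag, of 690 and 200 bp.

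By the authors' dual-antibody lists, MIR223 had 2 peaks in control and 3 in knockdown, and both shared peaks (chrX:66012947-66014280 and chrX:66014612-66016037) came from those. No peak at MIR223 was unique to a condition, although the numbers of calls differed. The extra knockdown call came from 1 control interval being called as 2 pieces. The block also held a region called by control anti-Flag and knockdown anti-ETO (chrX:66011974-66012786) and a 255-bp call by knockdown anti-Flag alone. All 14 calls of the 4 lists at MIR223 lay upstream of the hairpin.

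MIR130B (chr22:21653304-21653385, plus strand) is the family partner of miR-130a and lies just after MIR301B (chr22:21652981-21653058) in the same cluster, so both genes share their peaks. It had 4 control anti-ETO, 5 knockdown anti-ETO, 6 control anti-Flag and 3 knockdown anti-Flag peaks, 18 calls in all. As many or more were found at 87 microRNA genes (4.55%). These calls formed 5 merged regions, of which 3 were called in all 4 lists. The first lay in SDF2L1, a gene for an endoplasmic reticulum protein, at the far edge of the window (chr22:21642824-21643815, 9489 bp upstream). The next lay 1311 bp upstream of the hairpin (chr22:21651234-21651993), outside annotated genes. The last, the widest of the 3 with 1308 bp, lay 3656 bp downstream (chr22:21657041-21658348) and overlapped the annotated gene LOC107985532.

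The control-unique peak of MIR130B lay 6180 bp upstream of the hairpin, at chr22:21646643-21647124, outside annotated genes. Control anti-ETO and control anti-Flag called exactly this interval of 482 bp. In knockdown, anti-ETO called nearly the same interval, chr22:21646659-21647132, with 474 bp, and anti-Flag called none. The site was therefore control-unique through the lack of an anti-Flag call alone. The call nearest to the hairpin, 347 bp wide and 778 bp upstream (chr22:21652180-21652526), was made by knockdown anti-ETO, and a narrower control anti-Flag call of 176 bp lay inside it. Both overlapped LOC107985532, as did the region downstream of the hairpin, so this gene spans the hairpin.

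MIR126 (chr9:136670602-136670686, plus strand) lies inside EGFL7, which codes for a secreted endothelial factor and is its host gene. It had the most calls of the 10 genes: 2 by control anti-ETO, 6 by knockdown anti-ETO, 4 by control anti-Flag and 7 by knockdown anti-Flag. As many as these 19 or more were found at 80 microRNA genes (4.18%). The calls formed 9 regions, 2 of them in all 4 lists and 6 in a single list. The shared peak in EGFL7 lay 4908 bp upstream (chr9:136664878-136665694), where the 4 lists had peaks of 686, 816, 601 and 587 bp that ended within a base of each other. The other shared peak lay 8149 bp downstream in AGPAT2, a lipid synthesis gene (chr9:136678835-136679868).

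The knockdown-unique peak of MIR126 lay in EGFL7, 3057 bp upstream of the hairpin (chr9:136667016-136667545). Knockdown anti-ETO called 186 bp and knockdown anti-Flag 450 bp of it. Control anti-Flag already had a call of 533 bp there, and control anti-ETO had none. Of all 35622 merged regions, 2597 (7.29%) had this pattern of calls. Regions called by the knockdown lists only numbered 1854, and those with control anti-ETO in place of control anti-Flag 268. The anti-ETO call behind this gain was narrower than all but 5.42% of its list. The 6 regions called in a single list were 177 to 398 bp wide, narrower than either shared peak.

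MIR196B (chr7:27169480-27169563, minus strand) lies in the HOXA cluster between HOXA9 and HOXA10, which code for transcription factors of blood progenitors. It had 1 peak in every single-antibody list. The widths were 645 bp (control anti-ETO), 676 bp (knockdown anti-ETO), 702 bp (control anti-Flag) and 434 bp (knockdown anti-Flag). The shared peak at chr7:27173212-27173913 lay inside HOXA10, 3649 bp upstream of the hairpin in its direction of transcription. The anti-ETO calls of both conditions ended at the same base, and the knockdown anti-Flag call was the narrowest of the 4.

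MIR10A (chr17:48579838-48579947, minus strand) lies in the HOXB cluster, inside the annotated span of HOXB3. Its single call, by knockdown anti-Flag, was 333 bp wide, lay in HOXB3 5416 bp upstream of the hairpin (chr17:48585363-48585695) and fell at the width percentile of 43.5 of its list. No anti-ETO peak lay within 10 kb in either condition. The nearest knockdown anti-ETO peak was 22.6 kb upstream, at HOXB-AS3 and HOXB6, where the authors' lists hold a knockdown-unique peak (chr17:48602528-48602701, 174 bp). In control, the nearest peaks were 138 kb (anti-Flag) and 251 kb (anti-ETO) away. The knockdown calls described here were by anti-Flag at both places and by anti-ETO at the farther one, and no control call lay as near. Such calls are common: 22.3% of all merged regions were called by knockdown anti-Flag alone and 5.2% by the knockdown lists of both antibodies only. The calls at the farther place were among the narrowest of their lists. The anti-ETO call had 174 bp, the smallest width in its list, and the anti-Flag call 169 bp, against a smallest width of 165 bp. Both knockdown lists are also longer than the control lists of the same antibody.

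**Figure D2:**
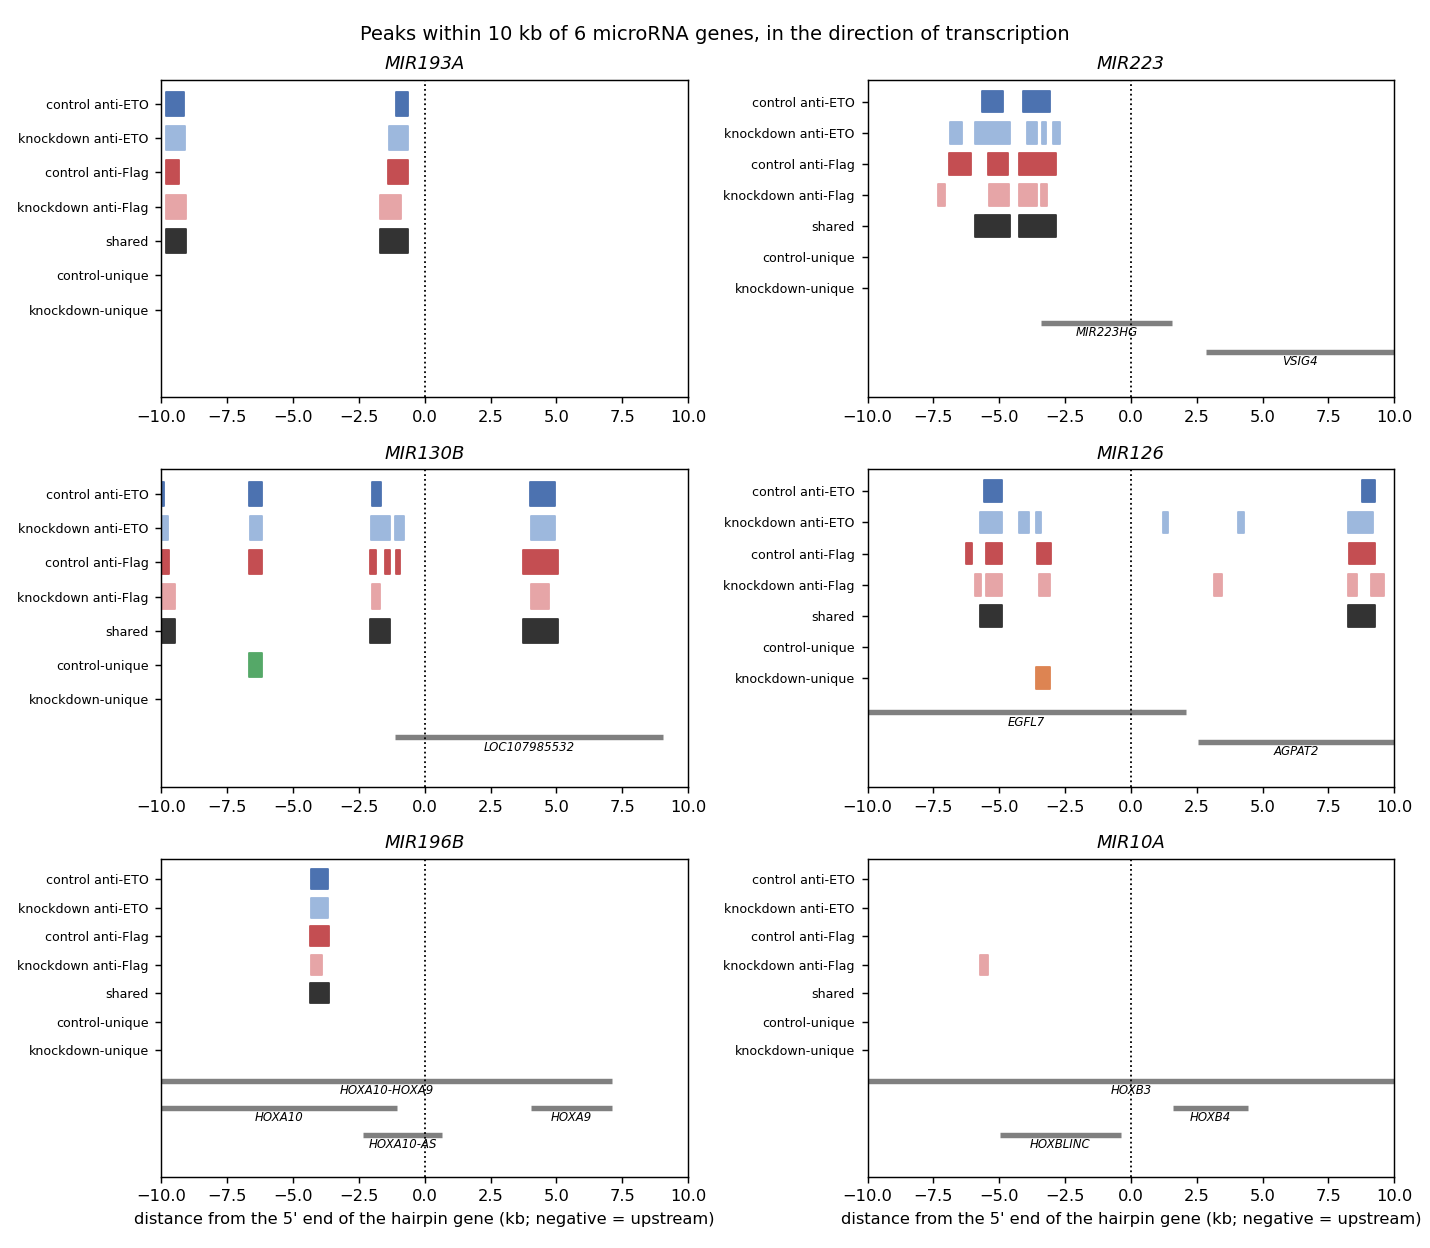
Peaks (bars) of 7 lists within 10 kb of 6 microRNA genes, drawn to scale against distance in kb from the 5′ end of the hairpin gene (dotted line; negative is upstream), with neighbouring genes in grey; gene pieces under 1 kb at a panel's edge and genes other than coding, long noncoding and transcribed pseudogenes are not drawn. The shared peaks of MIR193A, MIR223 and MIR196B lie upstream of the hairpin, those of MIR130B and MIR126 on both sides.

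MIR130A (chr11:57641198-57641286, plus strand), the gene of the microRNA that was knocked down, had no peak of either antibody within 10 kb in control or knockdown. This window holds the start of its host transcript MIR130AHG and the whole of YPEL4, and neither had a call. The nearest peaks lay 16.0 kb downstream, just before the start of CLP1, an RNA processing gene. There, knockdown anti-ETO called 238 bp (chr11:57657316-57657553), control anti-Flag 203 bp (chr11:57657312-57657514) and knockdown anti-Flag 236 bp (chr11:57657260-57657495). Control anti-ETO had no call there, and the authors' lists hold the site as knockdown-unique. The nearest shared peak was 25.4 kb downstream, at ZDHHC5 (chr11:57666718-57668826, 2109 bp).

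MIR146A (chr5:160485352-160485450, plus strand) also had no peak within 10 kb, but its host transcript did. The start of the noncoding host MIR3142HG lies at position 160468251, and a shared peak covered it (chr5:160467418-160468338, 921 bp), 17.0 kb upstream of the hairpin. The control calls were single peaks of 680 bp (anti-ETO) and 709 bp (anti-Flag) that ended 127 and 125 bp before the start. In knockdown each antibody had 2 calls within the shared peak. The nearer anti-ETO call (413 bp) crossed the start, and the nearer anti-Flag call (195 bp) ended 129 bp before it. Of the hosts with a start-site sequence in the table, MIR3142HG was the one with a call in all 4 lists over the 300 bases around its start. The windows of MIR130AHG, MIR181A1HG, MIR155HG and EGFL7 had none. At EGFL7, however, calls lay close to the 5′ start outside that window. Knockdown anti-ETO had a call 93 bp past it, control anti-Flag 1 at 257 bp past it, and a shared peak lay 1520 bp before it. EGFL7 had 6 shared peaks in the gene or within 10 kb.

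The 300 bases around the start of MIR3142HG (RefSeq, GRCh38.p14, chr5:160468001-160468300, plus strand, 250 before the start and 50 from it) are shown because both antibodies called them in both conditions. Capitals mark the 122 bases (chr5:160468001-160468122) that lie inside a peak of each of the 4 lists.
MIR3142HG start: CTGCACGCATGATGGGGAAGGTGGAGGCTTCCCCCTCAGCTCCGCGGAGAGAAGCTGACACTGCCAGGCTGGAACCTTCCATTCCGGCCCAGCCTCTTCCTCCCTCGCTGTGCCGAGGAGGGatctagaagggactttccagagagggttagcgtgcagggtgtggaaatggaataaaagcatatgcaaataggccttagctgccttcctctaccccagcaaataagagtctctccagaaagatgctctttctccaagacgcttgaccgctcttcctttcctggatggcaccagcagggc

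RUNX1 is known to bind TGTGGT and TGCGGT, and neither was present in this window on either strand. Among all 35116 start windows of the table, 13.1% held TGTGGT, 7.29% held TGCGGT and 19.6% held at least 1 of them. Of the other start windows examined at hosts and neighbours, that at the 5′ end of EGFL7, with no call in any of the 4 lists, and that of PPIL2, with a call in all 4, held 1 TGTGGT each. These are matches of letters in start windows, and the peaks themselves were not searched.

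**Figure D3:**
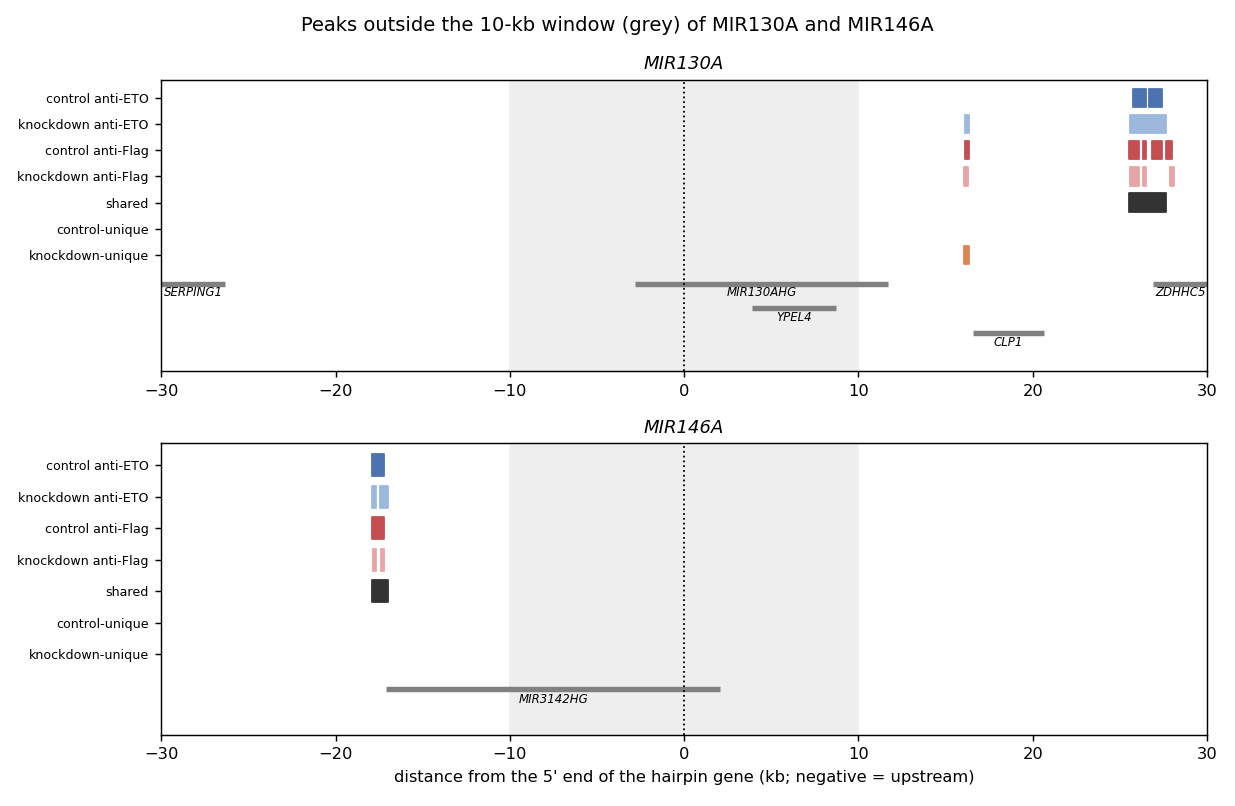
Peaks of 7 lists within 30 kb of MIR130A and MIR146A, drawn to scale against distance in kb from the 5′ end of the hairpin gene (dotted line; negative is upstream), with genes as grey lines and the 10-kb window shaded. Both windows are empty; peaks lie 16.0 kb downstream of MIR130A before CLP1 and 17.0 kb upstream of MIR146A at the start of MIR3142HG.

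MIR181A1 and MIR155 lay far from any call. For MIR181A1 (chr1:198859044-198859153, minus strand) the nearest peaks of the 4 lists were 176 kb away in PTPRC, the CD45 gene, where a shared peak spanned chr1:198680523-198683109. No peak touched the window of its host start, MIR181A1HG. For MIR155 (chr21:25573980-25574044, plus strand) the nearest control anti-ETO peak was 1269614 bp downstream at ADAMTS1, and the nearest peaks of the other 3 lists were between 1595439 and 1595604 bp upstream. MIR155HG, its host, had no peak in the gene or within 10 kb. At the 10-kb threshold itself, the outermost calls counted were those 9991 bp from MIR126 and 9895 bp from MIR130B. The first ones left out lay 10043 to 10047 bp upstream of MIR193A in the 4 lists, 10577 bp upstream of MIR126 (control anti-Flag) and 10831 to 10843 bp upstream of MIR130B in the 4 lists. Of the genes with no peak in the window, MIR130A and MIR146A had the nearest, at 15974 and 17014 bp.

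**Figure D4:**
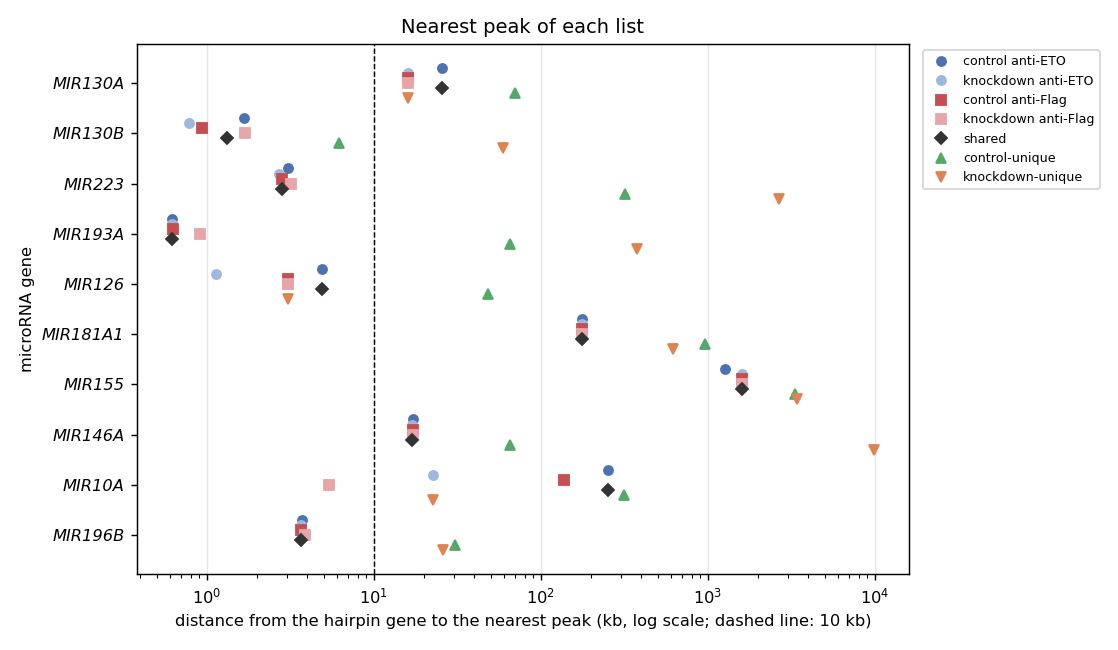
Distance from each microRNA gene to the nearest peak of 7 lists (points, log scale in kb), with the 10-kb window as a dashed line. MIR193A has the shortest distances in the shared list (619 bp), the shared peak of MIR146A lies just beyond the window, and those of MIR181A1 and MIR155 lie 176 kb and about 1600 kb away.

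Merging the 4 single-antibody lists gave 22 regions at the 10 genes, and 10 of them (45.5%) were called in all 4 lists, against 24.8% of all 35622 merged regions. A call in a single list was found for 8 regions: 4 by knockdown anti-Flag (18.2%, against 22.3% of all regions), 3 by knockdown anti-ETO (13.6%, against 10.3%) and 1 by control anti-Flag (4.55%, against 10.2%). Control anti-ETO alone called 0 of the 22 regions and 1.4% of all regions. The 4 remaining regions were called in 2 or 3 lists, and in 3 of these, at MIR130B, MIR223 and MIR126, the place was called by knockdown anti-ETO and control anti-Flag and not by control anti-ETO. That is 13.6% of the 22 regions, near the 11% of all regions (3934 of 35622).

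At the 10 genes together, anti-ETO peaks numbered 11 in control and 19 in knockdown, a ratio of 1.73. The ratio was 1.57 over all microRNA gene windows (954 and 1498) and 1.58 over the whole lists. MIR126 and MIR223 supplied 7 of the 8 added calls, with 2 and 6 peaks at MIR126 and 2 and 5 at MIR223. With both lists at the length of the control list, keeping the widest peaks, the 10 genes had 11 control and 12 knockdown anti-ETO peaks. Anti-Flag peaks numbered 16 and 18, a ratio of 1.12, the same as the 1.12 of the whole lists. Dual-antibody peaks numbered 11 and 12. The anti-ETO ratio at these genes was thus close to that of the whole lists. Cutting to equal length removes narrow calls first, such as those of 186 bp at MIR126 and 175 bp at MIR223. What lies behind the larger number of knockdown anti-ETO calls was not tested. The 5 genes with anti-ETO calls were the same in both conditions.

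Position and width were not criteria for choosing the genes. The genes were still chosen as known or likely targets with earlier results of these data known, so these values are not independent of that choice. No peak of any list overlapped a hairpin of the 10 genes; among all microRNA genes this was rare too, with 6.69% overlapped by a peak of at least 1 single-antibody list. Of the 22 regions, 17 lay upstream of the hairpin and 5 downstream, all 5 at MIR126 and MIR130B. MIR126 held 9 of the 22, MIR130B 5 and MIR223 4. The upstream share was not computed for all microRNA genes, so no preference can be read from it. The 10 shared peaks were 702 to 1426 bp wide with a median of 1013 bp, against 1047 bp in the whole shared list. In control, the median width at these genes was 645 bp for anti-ETO (461 bp in the whole list) and 636.5 bp for anti-Flag (416 bp). In knockdown it was 474 bp for anti-ETO (453 bp) and 442 bp for anti-Flag (364 bp). The centre of 4 of the 10 shared peaks lay within 1 kb of a start or end of a gene other than a microRNA, against 59.9% of the whole shared list.

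Genes that share a seed or a cluster with the 10 were counted next. Of 17 paralogs and cluster partners, 6 had a shared, control-unique or knockdown-unique peak, against 25.9% of all microRNA genes and 26.1% of all genes. MIR301B repeats the peaks of MIR130B. MIR301A, whose mature RNA carries the same seed as miR-130b-3p (its 3p sequence is identical to it at 11 of 22 positions), had 1 shared peak 2866 bp upstream across SKA2 and PRR11 (chr17:59154087-59156051) and 1 knockdown-unique peak in SKA2. Of the other genes compared that carry this seed, MIR454, MIR3666 and MIR4295 had no peak within 10 kb, and neither did MIR130A, whose 3p arm was not compared.

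The miR-146 pair differed in where the calls lay. MIR146B, whose mature RNA matches miR-146a-5p at 20 of 22 positions, had a shared peak 376 bp upstream of its hairpin (chr10:102434973-102436136, 1164 bp). It also had 2 control-unique peaks, chr10:102432223-102432587 in CUEDC2 and chr10:102434412-102434742. Its dual-antibody peaks numbered 3 in control and 1 in knockdown, although anti-ETO held 3 peaks in each condition and anti-Flag 4 and 3. MIR7153, the third gene with the seed, had none.

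Among the genes with the miR-181a-5p seed, MIR181A1, MIR181A2, MIR181B1 and MIR181B2 had no peak, while the chromosome 19 pair MIR181C and MIR181D had the same shared peak, in NANOS3, 1280 bp upstream of MIR181C (chr19:13872544-13873419). MIR181C also had 3 knockdown-unique peaks within 10 kb, 2 of them within 10 kb of MIR181D too. MIR4262, named after its values were seen, had a control-unique peak. MIR193B, with the seed of MIR193A, and MIR196A1 and MIR196A2, with that of MIR196B, had no peak in any of the 4 lists. MIR10B had 1 anti-ETO peak in each condition and no anti-Flag peak. Genes with the same seed thus differed in whether a peak lay near them.

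Of 47 other blood microRNA genes, 23 had a shared, control-unique or knockdown-unique peak, but many lie in clusters and share peaks: the 23 genes rested on 24 distinct peaks. Joined into 29 loci, 7 had a shared peak (24.1%, against 19.8% of all 1597 microRNA loci), 2 a control-unique peak (6.9%, against 7.83%) and 7 a knockdown-unique peak (24.1%, against 11.2%). The MIR23A, MIR27A and MIR24-2 cluster, in the host MIR23AHG, lay under a shared peak of 5695 bp (chr19:13835207-13840901) that covered all 3 hairpins. It had 2 more shared and 2 knockdown-unique peaks. MIR142, a microRNA found across blood cells, had 3 shared peaks on both sides of its hairpin, the widest of 5335 bp.

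The neighbours MIR132 and MIR212 had 2 shared peaks toward HIC1 and 1 knockdown-unique peak. MIR106B and MIR9-2 had 2 shared peaks each and MIR144 had 1, at FAM222B and ERAL1. MIR150, a lymphoid microRNA, had a control-unique peak 4649 bp from its hairpin and a knockdown-unique peak over the hairpin itself (chr19:49500727-49501376). MIR183 had 1 knockdown-unique peak. MIR17 and the other 5 genes of its cluster (named after their values were seen) shared 1 control-unique peak upstream (chr13:91346822-91347521, 700 bp), at 3084 bp from MIR17. Over that peak lay a control anti-ETO call of 479 bp, a knockdown anti-ETO call of 657 bp and a control anti-Flag call of 686 bp. No knockdown anti-Flag call lay there, the same pattern as at the control-unique peak of MIR130B (6.48% of all merged regions).

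**Figure D5:**
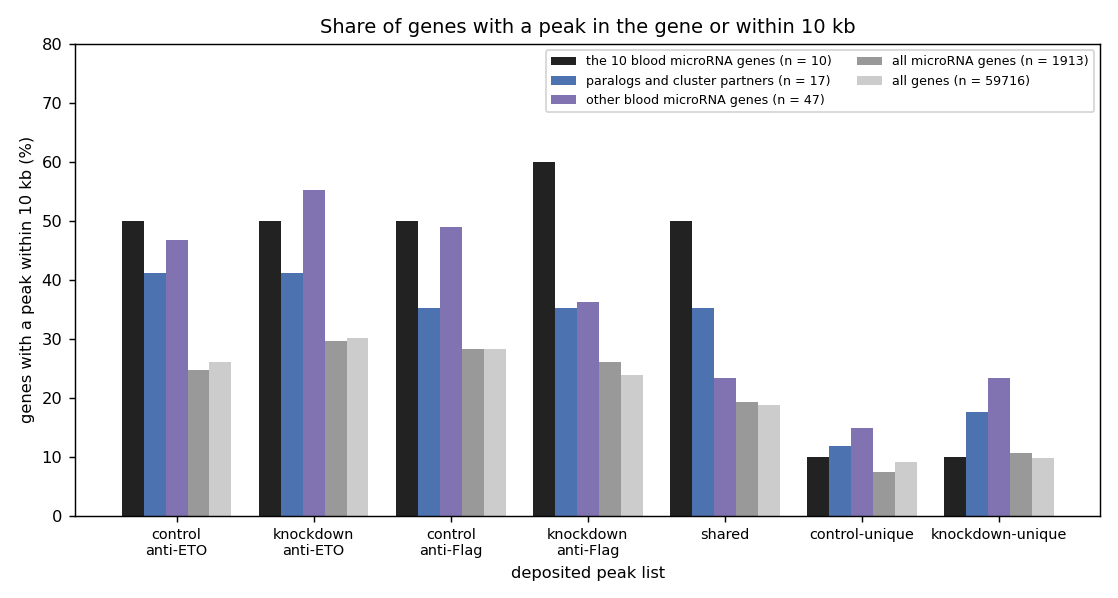
Percent of genes with a peak in the gene or within 10 kb, in 7 deposited lists, for the 10 blood microRNA genes and 4 other gene sets (bars, with the number of genes in the legend); there is 1 list per group and so no error bar. In the shared list the bars are 50% for the 10 genes, 35.3% for their paralogs and cluster partners, 23.4% for the other blood microRNA genes and 19.3% for all microRNA genes.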

How the data were processed

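CUT&RUN libraries of 18 samples in 6 groups of 3 were made from 150 to 400 bp fragments, read as 75-bp pairs at a planned 40 M reads. Per the submitters' processing notes, which give no role or order, the authors used fastp 0.19.5, Bowtie2 2.3.5, MACS2 2.2.5 and HOMER 4.8 and the builds hg38 and sacCer3. Threshold, use of IgG and pooling of replicates are not given in the sources used here. The deposited values are interval start and end positions, with no score; starts are printed counted from 1. A longer list, whatever sets its length, can hold more calls at any gene.

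Peaks were counted in each gene or within 10 kb (overlap of at least 1 bp), with Python 3.11.15, numpy 2.4.6 and pandas 2.3.3. Lists were merged where peaks overlapped by at least 1 bp. Every microRNA gene's count was checked with bedtools 2.31.1, and the code was tested on simulated data with planted answers (16 of 16 checks passed). The genes and gene lists were chosen with earlier results of these data known. All 10 genes were named; of the other lists, up to 12 genes with a shared, control-unique or knockdown-unique peak. The alternatives were other windows, peak centres, wider peaks, equal list lengths, other overlap rules and other backgrounds; equal length of all 4 lists and the joining of genes into loci were added after the data were seen. The motif search was limited to start windows, since no genome sequence was used here.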

Additional observations from a re-analysis of the deposited data

How the results depend on the processing

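Of 116 values recomputed for the 10 genes (genes with a peak, peaks and merged regions), 59 stayed within 1.5 times the main value. The window mattered most. With 0 kb, all 7 lists gave 0 genes and 0 peaks. With 1 kb, control anti-ETO and knockdown anti-Flag gave 1 gene and 1 peak, knockdown anti-ETO and control anti-Flag 2 and 2, the shared list 1 and 1, and both unique lists 0 and 0. With 5 kb the 5 genes with shared peaks stayed the same, with 7 control anti-ETO, 10 control anti-Flag and 10 knockdown anti-Flag peaks, and the control-unique list gave 0 genes and 0 peaks. With 20 kb, peaks numbered 20 (control anti-ETO), 33 (knockdown anti-ETO), 32 (control anti-Flag), 32 (knockdown anti-Flag), 18 (shared) and 3 (knockdown-unique, at 2 genes). With 50 kb they numbered 35, 54, 59, 64, 27 and 9 in that order, and 4 in the control-unique list; 8 genes had a knockdown anti-ETO peak, 3 a control-unique and 4 a knockdown-unique one. The wider 50% of each list left 10 knockdown anti-ETO, 10 knockdown anti-Flag and 4 shared peaks, the last at 3 genes. Shortening the knockdown anti-ETO list to its control's length left 12 peaks; with all 4 lists at the shortest length, 12 knockdown anti-ETO and 11 knockdown anti-Flag peaks were left. Counting peak centres and the other overlap rules moved no value by more than 1.5 times. No paired analysis was possible because the lists name no replicate and carry no value per library. Width ranks the peaks here in place of a score, which may not follow their strength.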

Other observations

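The genes that make and use microRNAs were counted in the same way. Of 18 processing and effector genes, 14 had a shared, control-unique or knockdown-unique peak in the gene or within 10 kb. Most of these genes are longer than a hairpin, which widens the stretch searched, so the 26.1% of all genes is not a matched background for them. A shared peak was found at 11 genes (18.8% of all genes had one), a control-unique peak at 2 (9.02%) and a knockdown-unique peak at 9 (9.84%). These shares are not matched for gene length either. At XPO5 and LIN28A, described below by knockdown-unique peaks, control anti-Flag had 2 peaks each and control anti-ETO had 0. AGO2, the Argonaute protein that can cut targets, had 6 shared peaks, 1 control-unique and 1 knockdown-unique peak. AGO1 and AGO3 shared 1 peak between them (chr1:35930114-35932208). DGCR8, the partner of the nuclear hairpin-cutting enzyme, had 2 shared peaks over the gene and 2 knockdown-unique peaks. XPO5, which exports hairpins from the nucleus, had 2 knockdown-unique peaks at its boundary with POLH (chr6:43575345-43576018 and chr6:43576201-43576541) and no shared one. RAN, its cofactor, had 1 shared and 1 knockdown-unique peak. TARBP2, a partner of Dicer, had 2 shared peaks.

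Among the TNRC6 proteins, which bind Argonaute, TNRC6B had 4 shared peaks, TNRC6A had 1 shared and 1 knockdown-unique, and TNRC6C had 3 shared and 2 knockdown-unique. DDX5, a helicase of the nuclear step, had 1 shared, 1 control-unique and 3 knockdown-unique peaks. LIN28A, an RNA-binding protein that blocks let-7 maturation, had 2 knockdown-unique peaks, 1 of them in DHDDS. DICER1, AGO4 and LIN28B, named after their values were seen, had no peak in any of the lists.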
